A study of Mus musculus with 33 samples.

Results

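The Hox cluster genes were the 39 genes, of 25239 in the expression table, whose symbol consists of Hox, a cluster letter from a to d and a paralog number. They comprised 11 Hoxa, 10 Hoxb, 9 Hoxc and 9 Hoxd genes. On GRCm38 the Hoxa cluster spanned chr6:52155367-52260880 (105.5 kb, minus strand), Hoxb chr11:96194316-96368254 (173.9 kb, plus strand), Hoxc chr15:102921131-103036856 (115.7 kb, plus strand) and Hoxd chr2:74668225-74765142 (96.9 kb, plus strand). Hox genes encode homeodomain transcription factors that give cells along the body axis their positional identity. Within a cluster the genes lie in the order in which they are used from head to tail: low paralog numbers at the 3' end act anteriorly and high numbers at the 5' end act posteriorly, and retinoic acid, FGF, WNT and the Cdx factors help to open the clusters in that order. Polycomb complexes keep unused Hox genes silent, Trithorax complexes maintain used ones, and HOX proteins bind DNA with partners of the PBX and MEIS families. Endothelial cells of adult organs are known to keep part of this positional code, and Hoxa9, Hoxb4 and Hoxb5 are also known from blood stem and progenitor cells.

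The series profiled mouse endothelial cells, sorted as CD41-, CD45-, Ter119-, CD31+, VEC+ (VE-cadherin) and cKIT low to positive, with and without added RUNX1, a transcription factor needed for blood formation from endothelium. They came from whole E9.5 embryos, whole E13.5 fetuses and the livers of adults aged 4 to 6 weeks, so that the embryonic samples pooled endothelium of all axial levels and the adult sample held that of 1 organ. E9.5 embryos, from superovulated females and of the strain C57BL/6J-129Sv/J x B6C3F1, were either Ctrl (CKI/+) or 1Runx1 (Cre; CKI/+). E13.5 fetuses of the strain C57BL/6J-129Sv/J were Ctrl (CKI/CKI or CKI/+), 1Runx1 (Cre; CKI/+) or 2Runx1 (Cre; CKI/CKI), and livers of the same strain were Ctrl (CKI/CKI or CKI/+) or 2Runx1 (Cre; CKI/CKI). CKI is the conditional knock-in allele that carries Runx1. Tamoxifen (2 mg) was given 24 h before harvest at both embryonic stages and by gavage for the liver, and neither the interval there nor the promoter that drives Cre is stated in the labels. The Ctrl labels name no Cre, so Cre and added Runx1 cannot be told apart. As labelled, E9.5 differed from the later stages in strain, superovulation and Ctrl genotypes, and liver differed from the embryos in organ as well as age. Differences between stages below cannot be told apart from these. RNA-seq had 2 libraries a group, except E13.5 Ctrl with 1, and ATAC-seq, which maps open chromatin by transposase insertion, had 2 libraries a group merged into 1 peak list.

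Runx1 itself checked the labels: its level was 0.904 to 1.53 RPKM (reads per kilobase of gene, set against the size of the library) in the 5 Ctrl libraries and 14.9 to 78.4 RPKM in the 8 libraries of the Runx1 groups. At E13.5 the 1Runx1 libraries stood at 28.9 and 23.7 RPKM and the 2Runx1 libraries at 22.7 and 25.2, so the Runx1 level did not set these 2 groups apart. The 13 libraries held 37754246 to 44540403 reads recovered from the table. All 10 endothelial markers were detected in every group, and their summed level was 2045 to 2062 RPKM in E9.5 Ctrl, 2516 in E13.5 Ctrl and 4842 to 4915 in Liver Ctrl. Summed liver sinusoidal markers stood at 121 to 126, 531 and 11811 to 11906 RPKM in the same groups. Genes of other cell types were present and differed by stage: 12 mesenchymal markers summed to 60.3 to 61.4, 158 and 93.9 to 96.5 RPKM, and 8 neural markers to 42.2 to 43.1, 50.3 and 6.12 to 6.38 RPKM, with Sox2, Sox10, Elavl3 and Dcx at 0 in Liver Ctrl. Mesenchymal and neural cells use Hox genes too, and the part of these cells in the stage differences below was not tested. In bulk libraries, fewer cells that use a gene and less RNA per cell cannot be told apart. Nothing in the labels says that replicates came from separate animals, so the p-values reflect only the spread among these libraries and that spread may be technical.

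The 250 bases before the start of 4 members show the range of sequence among Hox promoters; they are printed 5' to 3' in the direction of the gene, from RefSeq on GRCm38.p6. Hoxa5 and Hoxa2 were chosen because they were high in liver, and Hoxd8 and Hoxd10 because they were high at E13.5 and near 0 in liver. Capitals mark a match to a PBX-HOX composite site (TGATTNAT, on either strand) in Hoxa2 and to the RUNX core (TGTGGT, on either strand) in Hoxd10, which do not overlap another motif searched.
Hoxa5 (chr6:52204588-52204837, minus): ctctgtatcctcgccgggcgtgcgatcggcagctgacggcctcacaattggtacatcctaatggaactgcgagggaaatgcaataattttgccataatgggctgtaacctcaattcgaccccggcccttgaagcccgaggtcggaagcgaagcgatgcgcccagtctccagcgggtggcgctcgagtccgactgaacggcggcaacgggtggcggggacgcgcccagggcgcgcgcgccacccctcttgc
Hoxa2 (chr6:52164832-52165081, minus): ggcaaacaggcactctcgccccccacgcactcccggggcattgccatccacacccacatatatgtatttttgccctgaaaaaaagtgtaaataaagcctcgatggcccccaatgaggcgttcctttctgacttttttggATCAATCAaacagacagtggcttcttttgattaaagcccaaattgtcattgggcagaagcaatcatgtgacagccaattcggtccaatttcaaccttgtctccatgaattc
Hoxd8 (chr2:74704365-74704614, plus): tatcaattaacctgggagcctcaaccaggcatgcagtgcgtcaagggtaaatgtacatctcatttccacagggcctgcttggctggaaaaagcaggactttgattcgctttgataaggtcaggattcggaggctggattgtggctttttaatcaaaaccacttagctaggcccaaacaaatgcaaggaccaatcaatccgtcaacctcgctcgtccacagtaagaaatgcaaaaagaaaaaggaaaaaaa
Hoxd10 (chr2:74691641-74691890, plus): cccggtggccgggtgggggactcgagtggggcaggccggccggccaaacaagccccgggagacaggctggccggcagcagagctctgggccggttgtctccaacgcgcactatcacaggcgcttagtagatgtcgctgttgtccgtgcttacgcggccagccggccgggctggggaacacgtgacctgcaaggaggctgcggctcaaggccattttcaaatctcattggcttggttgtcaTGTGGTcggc

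Promoter sequence was at hand for 22 of the 39 members. They had 24 promoter entries, since Hoxa10 and Hoxd11 had more than 1 each. Over these entries the median GC content was 58.6%, against 52.4% over the other 32827 promoters. The median number of CpG dinucleotides was 12.5 against 6, with a range from 2 to 35. The Hoxa5 promoter held 28 CpG at 63.6% GC and the Hoxd10 promoter 20 at 65.6% GC, while Hoxa2 and Hoxd8 held 6 each at 46.4% and 44.4% GC. The RUNX core was found in 1 of 22 members (4.55%), Hoxd10, 10 bases before the start, against 14.1% of the other promoters. The PBX-HOX composite site was found in Hoxa2, 111 bases before the start, and in Hoxd11 (9.09% against 2.82%). A TATA box (TATAAA) was found in 4 members (18.2% against 12.4%) and a caudal-type site (TTTATG), the kind bound by Cdx factors, in 5 (22.7% against 10.8%). For motifs a member was counted if any of its promoters held a match, whereas the other promoters were counted singly, so the shares differ in unit. Each motif was searched on both strands, and a match is a stretch of letters, not a measured binding site.

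The control endothelium of the 3 stages, which also differed in strain or organ as given above, used different parts of the Hox clusters. At E9.5 14 of 39 members reached a mean of at least 1 RPKM, at E13.5 16 did, and in adult liver 11 did. The liver set consisted of 5 Hoxa and 6 Hoxb genes with no Hoxc or Hoxd gene, whereas the E13.5 set held 8 Hoxa, 5 Hoxb and 3 Hoxd genes. Of the 39 members, 19 had no read in either Liver Ctrl library (2 Hoxa, 2 Hoxb, all 9 Hoxc and 6 Hoxd genes), against 2 in E9.5 Ctrl and 1 in E13.5 Ctrl. Paralogs 9 to 13 carried 20.9% of all Hox RPKM in E9.5 Ctrl, 21.8% in E13.5 Ctrl and 0.0977% in Liver Ctrl. Hox RPKM summed over all members was 44.7 ± 2.06 (SD, n = 2) in E9.5 Ctrl, 63.5 in the single E13.5 Ctrl library and 72.3 ± 2.53 (SD, n = 2) in Liver Ctrl. The deposited RPKM hold a scaling factor per library, and with it taken out the sums were 45.4 and 48.4, 71.7, and 58.4 and 62 RPKM. The liver thus had the fewest members at 1 RPKM or above and a higher summed level than E9.5, while its order against E13.5 turned with the scaling.

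By cluster, the Hoxa sum was 18.6, 24 and 40.8 RPKM in E9.5, E13.5 and Liver Ctrl, and the Hoxb sum 16.7, 16.6 and 31.4 RPKM. The Hoxd sum was 6.74, 21 and 0.169 RPKM, which is 15.1%, 33% and 0.233% of all Hox RPKM. Hoxc was the lowest cluster in both embryonic stages, with sums of 2.61 and 1.94 RPKM, and no Hoxc gene reached 1 RPKM in any group. Paralogs 1 to 3 held 26.4%, 15% and 26.9% of Hox RPKM, and paralogs 4 to 8 held 52.7%, 63.2% and 73%. The order of the highest genes also differed by stage: Hoxb7, Hoxa5 and Hoxb2 were among the leading genes of E9.5, Hoxd8 and Hoxa5 led at E13.5, and Hoxa5 and Hoxb5 led in liver.

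**Figure D1:**
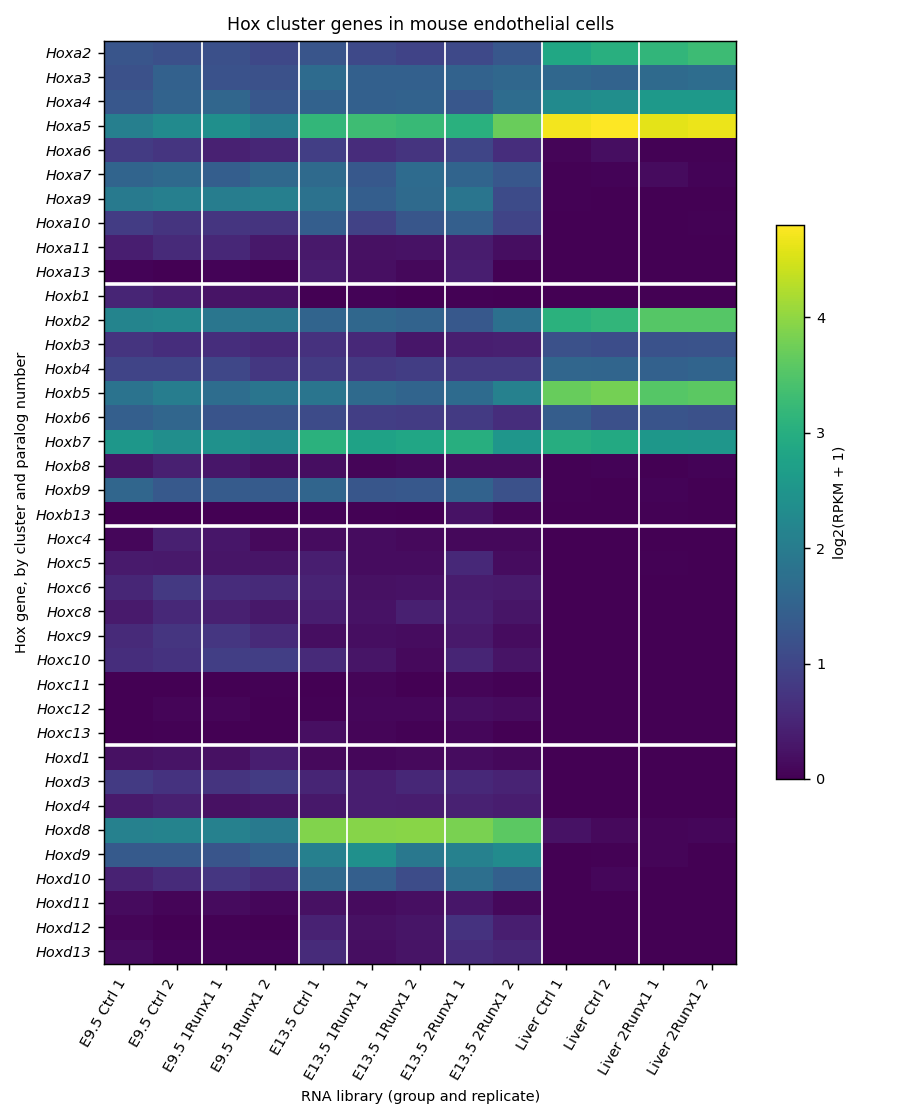
Log2(RPKM + 1) of 38 Hox cluster genes (rows, by cluster and paralog number) in the 13 RNA libraries (columns, by group and replicate; white lines part groups and clusters). Liver columns are dark for all Hoxc and Hoxd rows and for the lower end of Hoxa and Hoxb, where the highest liver row is Hoxa5 with 25.2 and 26.8 RPKM in Ctrl.

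For tests, 18 members passed the filter of at least 1 RPKM in at least 2 libraries, and 21 did not. The test was limma on log2(RPKM + 1) over all 12546 genes that passed, so a log2 difference understates the change of low genes. Differences are given with their standard error, and a gene was called higher or lower at an adjusted p (Benjamini-Hochberg) under 0.05. For E13.5 Ctrl, with 1 library, the spread was borrowed from the groups with 2.

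Between E9.5 and E13.5 the 2 largest differences lay in the Hoxd cluster. Of the 18 tested members 7 were higher at E13.5 and 2 lower, so 9 were called, beside 48.8% of all genes tested (22.3% higher and 26.4% lower). Among the 7, Hoxa10 and Hoxd10 were below 1 RPKM in every E9.5 and liver library. They passed the filter through E13.5 libraries alone and could not be called lower there, so the higher count is a description. The median difference was 0.07 over the tested members and -0.02 over all genes. With the authors' scaling factor per library taken out, 28.4% of all genes were higher and 19.5% lower, and the members again split into 7 higher and 2 lower.

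Hoxd8, in the middle of the Hoxd cluster, stood at 3.33 and 3.45 RPKM in E9.5 Ctrl and at 13.8 RPKM in E13.5 Ctrl. The E13.5 library lay above both E9.5 libraries, with a log2 difference of 1.76 ± 0.12 (adjusted p = 1.88e-06) and a 4.08-fold ratio on the RPKM scale (95% interval 3.71 to 4.49, exact binomial on 1464 and 621 reads, counting error only). Its 5' neighbours were higher too. Hoxd9 was 1.57 and 1.55 RPKM at E9.5 and 3.26 at E13.5 (log2 difference 0.74 ± 0.18, adjusted p = 0.00619), and Hoxd10 was 0.37 and 0.505 RPKM and then 2.07 (1.1 ± 0.17). Because Hoxd10 passed the filter through E13.5 libraries alone, its difference is a description. Farther towards the 5' end, Hoxd12 and Hoxd13, which pattern the distal limbs and the tail end of the trunk, were below 1 RPKM throughout. Hoxd13 was 0.105 and 0.0354 RPKM at E9.5 and 0.508 at E13.5, a 7.38-fold ratio with an interval of 4.16 to 14 on 64 and 15 reads. Hoxd12 went from 0.0483 and 0.00899 to 0.378 RPKM, and Hoxd3 at the other end was 0.75 and 0.628 and then 0.408 RPKM. Hoxd3, Hoxd12 and Hoxd13 fell outside the filter and were picked after their values were seen.

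Hoxa5, which is used in lung, gut and vertebrae at the level of neck and thorax, was 3.18 and 3.94 RPKM in E9.5 Ctrl and 8.03 in E13.5 Ctrl (log2 difference 0.99 ± 0.22, adjusted p = 0.0042). Hoxb7, a trunk gene, was 4.8 and 4.16 and then 7.35 RPKM (0.61 ± 0.17, adjusted p = 0.0121). Both E13.5 values lay above the pair of E9.5 values. Hoxa3 (0.34 ± 0.12, adjusted p = 0.0458) was also called higher. So was Hoxa10 (0.64 ± 0.19), but it passed the filter through E13.5 libraries alone, so its difference is a description. Leaving out replicate 2 of E9.5 Ctrl, which left 1 library against 1, ended the calls of Hoxb7, Hoxa10 and Hoxb6. Leaving out replicate 1 ended that of Hoxa3, whose difference was then 0.19.

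The members lower at E13.5 were Hoxb2 and Hoxb6. Hoxb2, which patterns the hindbrain, was 3.48 and 3.66 RPKM in E9.5 Ctrl and 1.92 in E13.5 Ctrl, with no overlap (log2 difference -0.65 ± 0.15, adjusted p = 0.00514). Hoxb6 had a difference of -0.42 ± 0.13 (adjusted p = 0.022). Hoxb1, the hindbrain gene at the 3' end of its cluster, was 0.412 and 0.329 RPKM at E9.5 and 0.00982 RPKM at E13.5, where it rested on 1 read, and had no read in liver. The Hoxc genes stayed low: Hoxc6 and Hoxc10 had the highest means at E9.5, 0.587 and 0.584 RPKM. Hoxc10 was 0.537 and 0.631 RPKM at E9.5 and 0.48 at E13.5, and Hoxc9 was 84 reads in 2 libraries at E9.5 and 11 reads in 1 library at E13.5, a ratio of 0.227 (interval 0.109 to 0.426).

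In adult liver endothelium the Hox genes at 1 RPKM or more all had paralog numbers from 1 to 7. Of the 20 members with these numbers 11 had a mean of at least 1 RPKM in Liver Ctrl and 10 in E13.5 Ctrl, and of the 19 with numbers 8 to 13, 0 did in Liver Ctrl (highest mean 0.129 RPKM) and 6 in E13.5 Ctrl. Of the 18 tested members 7 were higher in liver and 8 lower, so 15 were called, beside 79.3% of all genes (40.6% higher and 38.6% lower). The share called is near the background. Of the 8 lower members 7 were below 1 RPKM in all 4 liver libraries, so they passed the filter through embryonic libraries alone and the lower count is a description. Among the 7 higher members, Hoxb3 was below 1 RPKM in every embryonic library, and Hoxb4 in all except replicate 1 of E9.5 1Runx1 (1.02 RPKM). They passed the filter because of liver libraries and could only be called higher, so the higher count is a description too. The median over all genes was 0.02. With the scaling factor taken out, the median over all genes was -0.35, 27.4% of genes were higher and 52.9% lower, and the members split into 6 higher and 10 lower. The comparison of liver with E9.5 shares the Liver Ctrl libraries; there 8 members were higher and 8 lower, beside 42.7% of genes higher and 42.7% lower (85.4% called), and 7 of the 8 lower ones again passed the filter through embryonic libraries alone. Hoxb3 and Hoxb4 were again among the higher ones, so both counts are a description.

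Hoxa5 was the highest Hox gene of liver endothelium, at 25.2 and 26.8 RPKM in Liver Ctrl, on 1512 and 1664 reads, against 8.03 RPKM in E13.5 Ctrl. The difference from E13.5 was 1.58 ± 0.22 on the log2 scale (adjusted p = 6.08e-05) and that from E9.5 was 2.57 ± 0.18 (adjusted p = 1.27e-07). Its level was called higher at each later stage. Hoxb5, the paralog of Hoxa5 in the Hoxb cluster, stood at 2.53 and 3.1 RPKM at E9.5, 2.66 at E13.5 and 11.9 and 12.9 in liver. For Hoxb5 the embryonic stages did not differ beyond their spread (-0.06 ± 0.16, 95% interval -0.42 to 0.31), and liver was 1.87 ± 0.16 above E13.5 (adjusted p = 1.29e-06).

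Hoxa2 and Hoxb2, the paralogs known for patterning the hindbrain and its neural crest, were both high in liver. Hoxb2 was 7.36 and 7.88 RPKM in Liver Ctrl, above every embryonic Ctrl library (1.56 ± 0.15 against E13.5, adjusted p = 2.92e-06). Hoxa2, chosen after its values were seen, was 1.39 and 1.26 RPKM at E9.5, 1.4 at E13.5 and 6.28 and 7.15 in liver (1.68 ± 0.13 against E13.5, adjusted p = 5.46e-07). The remaining genes higher than at E13.5 were Hoxa4, Hoxb4 and Hoxb3, with log2 differences of 0.84, 0.74 and 0.47. Those of Hoxb4 and Hoxb3 are a description, since both genes passed the filter because of liver libraries. Without the scaling factor the Hoxb3 difference was 0.26 (adjusted p = 0.0846). Group 4 and 5 paralogs of Hoxa and Hoxb thus all had higher values in liver, for Hoxb4 as a description only. Hoxc4, Hoxc5 and Hoxd4 did not pass the filter and had no read in Liver Ctrl. Hoxb7 (-0.11), Hoxa3 (-0.12) and Hoxb6 (0.18) were not called between E13.5 and liver, and Hoxb7 stayed at 6.92 and 6.52 RPKM in Liver Ctrl.

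The posterior members were close to 0 in liver. The tested ones named here passed the filter through embryonic libraries alone, so their differences are a description. Hoxd8, the highest Hox gene of E13.5, was 0.174 and 0.0842 RPKM in Liver Ctrl, on 12 and 6 reads (-3.72 ± 0.12 against E13.5). On the RPKM scale E13.5 was 108-fold above liver, with an interval of 68.1 to 183. Hoxd9 had 0 and 1 read in liver (-2.08 ± 0.18) and Hoxd10 had 0 and 4 reads (-1.57). Hoxa9, known from blood progenitors, was 2.91 and 3.22 RPKM at E9.5, 2.48 at E13.5 and 0.0193 and 0.00938 in liver, on 2 and 1 reads (-1.78 ± 0.24 against E13.5). Its E13.5 level was 173-fold that of liver, with a counting interval of 58.9 to 845. Hoxa7, Hoxb9 and Hoxa10 were lower by -1.62, -1.54 and -1.42, so the Hoxa boundary lay between Hoxa5 and Hoxa7, with Hoxa6 at 0.842 RPKM in E13.5 Ctrl and at 0.0416 and 0.134 RPKM in Liver Ctrl. In Hoxb the boundary lay between Hoxb7, at 6.92 and 6.52 RPKM, and Hoxb9, at 0.0231 and 0 RPKM. In the same comparison 8 of 10 tested mesenchymal markers were lower in liver and 2 higher (median -1.51), and 4 of 4 tested neural markers, of 8 listed, were lower (median -2.53). Of all genes 38.6% were lower and 40.6% higher. Other lists went the other way, with 4 of 4 tested leukocyte markers (median 1.32) and 8 of 8 sinusoidal markers (median 3.29) higher. The part of these cells in the Hox values was not tested.

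Of the 19 members with no read in Liver Ctrl, 15 exceeded 3 reads in E13.5 Ctrl and were at least 1.77-fold to at least 14.2-fold higher there than 3 reads per liver library would be. The same held for 13 members in E9.5 Ctrl, with bounds from 1.92 to 21.6-fold. All 9 Hoxc genes belong to the 19. A filter at 0.25 RPKM let in 13 more members, all through embryonic libraries (highest liver value 0.134 RPKM), so a call in liver could only be lower and their calls are not counted as a result.

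**Figure D2:**
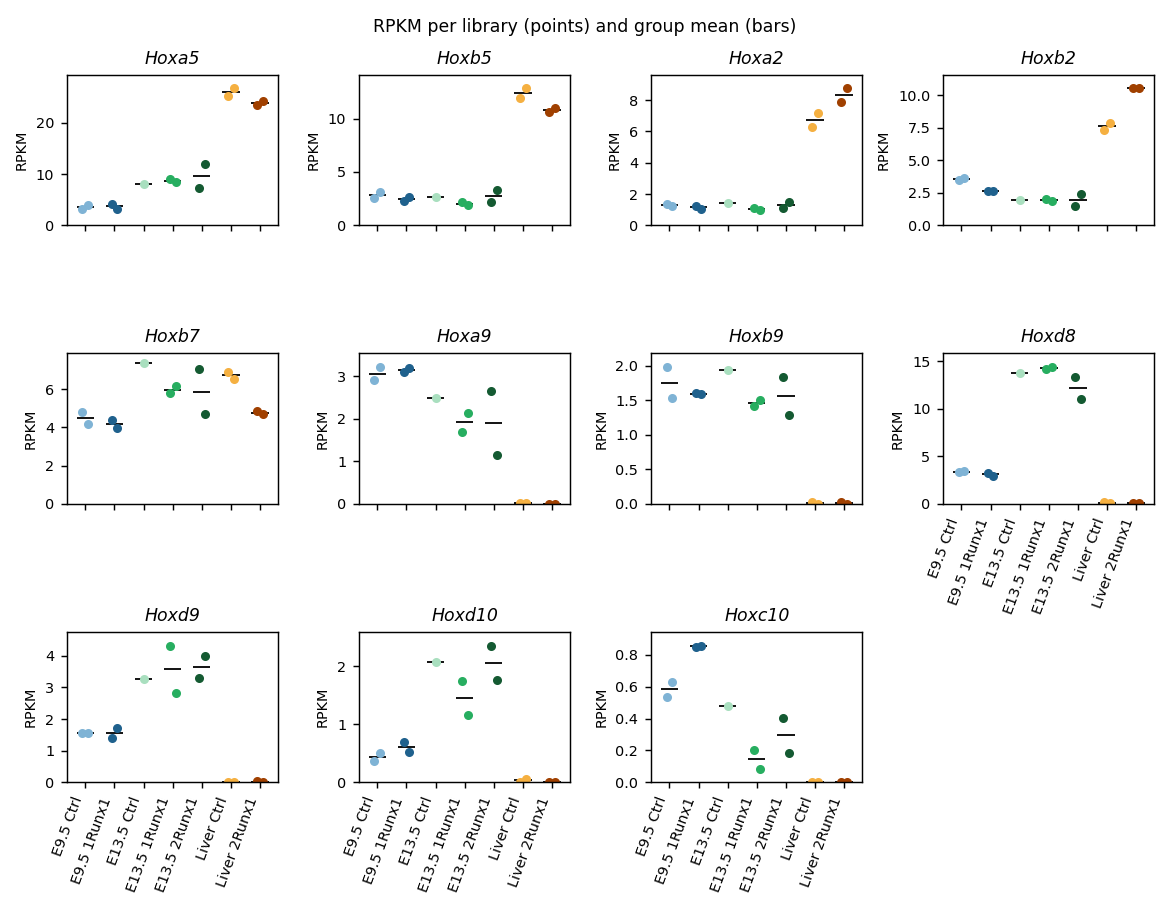
RPKM of 11 Hox genes in each library (points), with the group mean as a black bar, by group on the horizontal axis; Hoxa2, Hoxb9 and Hoxc10 were added to 8 genes given by rule after their values were seen. Hoxa5, Hoxb5, Hoxa2 and Hoxb2 are highest in the liver groups, Hoxd8, Hoxd9 and Hoxd10 at E13.5, and Hoxa9, Hoxb9, Hoxc10 and the 3 Hoxd genes sit near 0 in liver.

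Open chromatin in the clusters was far less extensive in liver than in the embryo. ATAC peaks covered 9.37% of the clusters with 5 kb on either side in E9.5 Ctrl, 8.44% in E13.5 Ctrl and 1.5% in Liver Ctrl, beside 1.51%, 1.51% and 0.506% of the genome. Each group had 1 merged list, so these shares have no replicate check and no test. The lists differed in length, with 99298, 96537 and 39019 peaks. When every list was cut to its 39019 best peaks by q, the shares were 4.62%, 4.27% and 1.5%, beside 0.943%, 0.948% and 0.506% of the genome. In whole and shortened lists alike, the clusters of these 3 groups were covered to a larger share than the genome, and the liver clusters to a smaller share than the embryonic ones.

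The clusters were not alike. In Liver Ctrl peaks covered 4.63% of Hoxa, 0.727% of Hoxb, 0.261% of Hoxc and 0.918% of Hoxd, so Hoxa kept the largest share. In E13.5 Ctrl the shares were 11.4%, 6.65%, 5.71% and 11.6%, and Hoxa and Hoxd were about level. As ratios to the genome share they were 9.14, 1.44, 0.515 and 1.81 in Liver Ctrl and 7.56, 4.42, 3.8 and 7.68 in E13.5 Ctrl. Relative to the genome, Hoxa was thus not lower in liver, whereas Hoxb, Hoxc and Hoxd were. Liver Ctrl had 33 cluster peaks, 16 of them in Hoxa, and 14 of those 16 (87.5%) lay nearest to a member with a paralog number from 1 to 7, against 19 of 31 (61.3%) in E13.5 Ctrl. In Hoxb the counts were 8 of 9 (88.9%) against 24 of 36 (66.7%). Hoxd went the other way, with 2 of 6 (33.3%) against 16 of 25 (64%), and Hoxc had 1 of 2 in liver. Over all 4 clusters the shares were 75.8% and 57.7%. Of the 33 liver peaks, 31 (93.9%) overlapped an E13.5 Ctrl peak by at least 1 base, beside 79.7% of all liver peaks. Conversely 29 of the 111 E13.5 Ctrl cluster peaks (26.1%) overlapped a liver peak, beside 30.4% of all E13.5 peaks. Liver cluster peaks were thus mostly a subset of the embryonic ones.

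**Figure D3:**
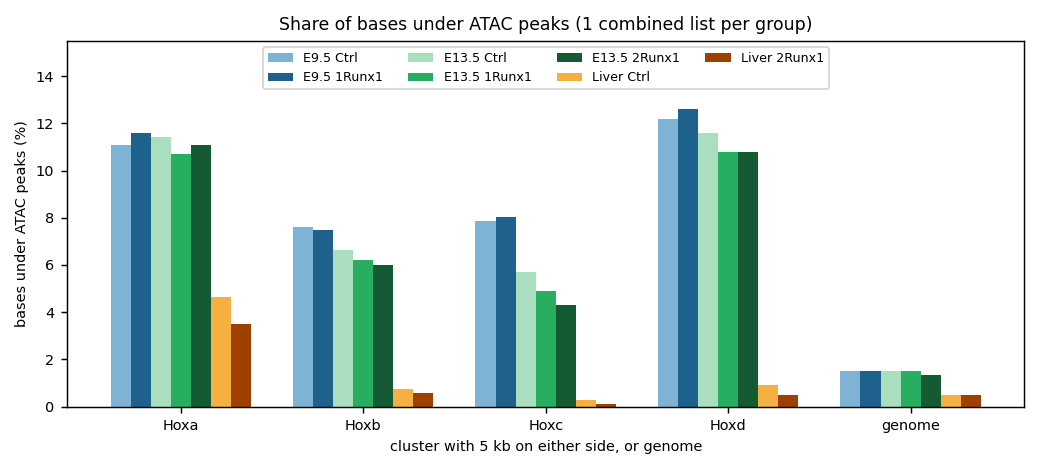
Share of bases under ATAC peaks (vertical axis, %) in each cluster with 5 kb on either side and in the genome, by group; 1 combined list per group, so the bars have no error. All 5 embryonic groups lie above both liver groups in every cluster, and Liver Ctrl is highest in Hoxa at 4.63%.

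At the gene starts, 30 of 39 members had a peak within 500 bases in E9.5 Ctrl (76.9%), 28 in E13.5 Ctrl (71.8%) and 10 in Liver Ctrl (25.6%). Over the other 27003 genes the shares were 52.3%, 51.6% and 38%. With lists of equal length the member counts were 17, 15 and 10 (43.6%, 38.5% and 25.6%), beside 45.6%, 44.7% and 38% of the other genes. The higher share of members in the embryonic groups was thus found in the whole lists only, whereas the liver share lay below that of other genes in both. The start of 22 members came from RefSeq promoters and that of 17 from the gene's outer bound. The annotated span of Hoxa3 contains Hoxa4, Hoxa5 and Hoxa6, that of Hoxb3 contains Hoxb4, and that of Hoxd3 contains Hoxd4, so the values of these genes are uncertain where their exons overlap.

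The Hoxa5 start carried a peak in all 7 lists, with a fold enrichment over background, as the authors' caller gave it, of 10.8 in E9.5 Ctrl, 12.7 in E13.5 Ctrl and 11.7 in Liver Ctrl. It was the strongest Hoxa peak of Liver Ctrl, at chr6:52203677-52204782, and it ran into the promoter printed above. Hoxa2 and Hoxb5, also high in liver, had peaks in all lists, at 5.38 and up to 4.98 in Liver Ctrl. Hoxb2 had a peak in each embryonic list and in Liver 2Runx1 (3.96) and none in Liver Ctrl. The start of Hoxd8 carried a peak of 7.78 at E9.5 and 8.1 at E13.5 and none in either liver list, and that of Hoxd10 was at 17.2 and 15.1 and likewise without a liver peak. For Hoxa5, Hoxa2, Hoxb5, Hoxd8 and Hoxd10, a peak in Liver Ctrl went with RNA there.

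Other members did not follow that pattern. Hoxa10 had 0 and 1 read in Liver Ctrl, yet its start carried a peak in all 7 lists, at 18.3 in E13.5 Ctrl, 9.16 in Liver Ctrl and 10.7 in Liver 2Runx1. Hoxd9 had a peak of 4.75 in Liver Ctrl beside 0 and 1 read, and Hoxd13 one of 4.16 beside no read. Hoxb7 had no peak at its start in Liver Ctrl at 6.92 and 6.52 RPKM. Hoxc10 carried the strongest Hoxc peak of E9.5 Ctrl, at 18.9, beside a level under 1 RPKM. Hoxa9 had no ATAC peak within 500 bases of its start in any list.

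Outside the gene starts, the strongest Hoxb peak of every embryonic list lay between genes, at chr11:96261468-96261878 in E13.5 Ctrl (fold 15.6), with its centre at -9657 bases from the Hoxb9 start. The strongest Hoxc peak of E13.5 Ctrl, at chr15:102987397-102987964 (fold 20.6), had its centre at -2859 bases from the Hoxc8 start, and a weaker peak at the same place was the strongest Hoxc peak of Liver Ctrl (fold 6.68). In Hoxd the strongest peak was at Hoxd10 in E9.5 Ctrl and at Hoxd1 in E13.5 Ctrl (chr2:74762695-74763545, fold 16.1), although Hoxd1 RNA was below 1 RPKM in both.

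**Figure D4:**
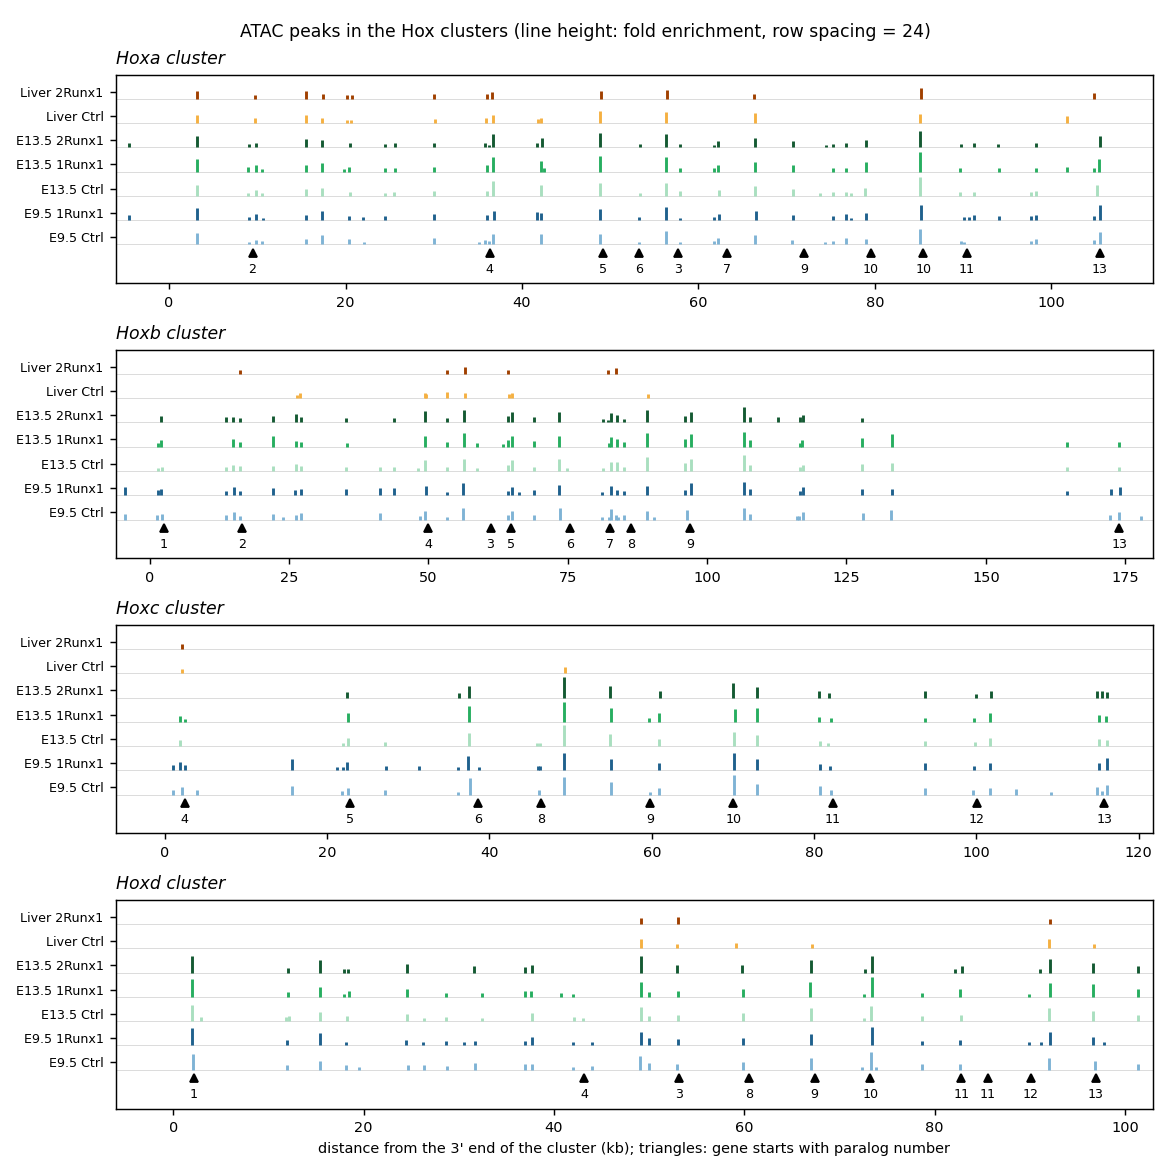
ATAC peaks in the 4 clusters by distance from the 3' end of the cluster (kb), 1 line per peak with its height set by the fold enrichment, 1 row per group; triangles mark starts of the genes shown, by paralog number. The liver rows of Hoxa follow the embryonic rows toward the 3' end, and those of Hoxc hold 2 peaks in Liver Ctrl and 1 in Liver 2Runx1.

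Few Hox genes passed the test for a difference between Runx1 groups and controls. At E9.5 0 of the 18 tested members were called by limma, beside 1.19% of all genes, and at E13.5 1Runx1 had 1 member lower and 0 higher, beside 10.4% (4.03% lower and 6.34% higher). In E13.5 2Runx1 0 were called, beside 0.271%, and in Liver 2Runx1 1 was higher and 1 lower, beside 25.3% (17.1% and 8.14%). At an unadjusted p under 0.05 there were 2 members at E9.5 and 1 in E13.5 2Runx1, and limma-voom on recovered reads called 0 in both. The median member difference was -0.08, -0.24, -0.15 and -0.01 in that order, beside 0.01 to 0.02 over all genes.

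At E13.5 most tested members lay below the control, mostly without passing the test, and the 1Runx1 and 2Runx1 comparisons share the single Ctrl library. In 1Runx1 11 of 18 members (61.1%) had both libraries below Ctrl, beside 34.6% of all genes, and 2 had both above, beside 43.2%. In 2Runx1 9 (50%) were below, beside 30.2%, and 1 above, beside 39.5%. Hoxd13, outside the filter and singled out after its values were seen, was 0.508 RPKM in Ctrl, 0.136 and 0.184 in 1Runx1 and 0.517 and 0.434 in 2Runx1. With the filter at 0.25 RPKM its 1Runx1 difference was -0.38 ± 0.08, and 2Runx1 was 0.35 ± 0.07 above 1Runx1. Hoxd13 passed that filter only through Ctrl and 2Runx1 libraries, where it was high, so both differences are a description. Hoxc10 was 0.48 RPKM in Ctrl, 0.205 and 0.0861 in 1Runx1 and 0.403 and 0.186 in 2Runx1, and was not called in 1Runx1 (-0.37, adjusted p = 0.0678) or between 2Runx1 and 1Runx1 (0.17, adjusted p = 0.31). Summed mesenchymal markers were 158 RPKM in E13.5 Ctrl and 102 to 124 in 1Runx1, neural markers 50.3 and 39.8 to 40, hepatocyte markers 138 and 52.3 to 57.9, and erythroid markers 75.7 and 26.2 to 45.9; their part in these Hox values was not tested.

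The E13.5 2Runx1 libraries differed from each other. Hoxa9 was 2.66 and 1.15 RPKM, Hoxb7 7.06 and 4.7, and Hoxa5 7.23 and 12. Summed sinusoidal markers in the pair were 347 and 669 RPKM and hepatocyte markers 62.4 and 142, while mesenchymal markers were 165 and 112 and neural markers 51.7 and 37.2; their part in the Hox values of the pair was not tested. Without replicate 1, which left 1 library against 1, the Hoxa9 difference from Ctrl was -0.69 and the Hoxb7 difference -0.55. With both libraries they were -0.31 and -0.30. Against 1Runx1, 0 members were called, beside 5.33% of genes, with 3 at an unadjusted p under 0.05 and 1 by limma-voom. Without replicate 1 of 2Runx1, which left 1 library in that group, the Hoxb5 difference from 1Runx1 was 0.50, beside 0.29 with both.

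In liver, Hoxb2 was 7.36 and 7.88 RPKM in Ctrl and 10.6 and 10.6 in 2Runx1, with no overlap (0.43 ± 0.12, adjusted p = 0.0265). Hoxb7 was 6.92 and 6.52 RPKM in Ctrl and 4.84 and 4.72 in 2Runx1, also with no overlap (-0.42 ± 0.14, adjusted p = 0.0474). Leaving out any 1 of the 4 liver libraries ended both calls, with adjusted p from 0.0735 to 0.143 for Hoxb2 and from 0.118 to 0.199 for Hoxb7. Of the 18 tested members 6 had both 2Runx1 libraries above both Ctrl libraries, beside 37% of all genes, and 6 had both below, beside 29%. These counts rest in part on values near 0. Hoxa7 was above on 7 and 2 reads against 1 and 2 in Ctrl. Hoxa9 was below on 0 and 0 reads against 2 and 1, and Hoxd8 on 4 and 4 against 12 and 6. Hoxa2 was 6.28 and 7.15 RPKM in Ctrl and 7.88 and 8.78 in 2Runx1 (0.27 ± 0.11, adjusted p = 0.0908). Genes without reads were as many with added Runx1: 19 members had no read in Liver Ctrl and 19 in Liver 2Runx1, and Hoxd8 was 0.0517 and 0.0575 RPKM in Liver 2Runx1. Hoxb2 is also the gene whose start had an ATAC peak in Liver 2Runx1 (fold 3.96, -log10 q 2.32) and none in Liver Ctrl, and the Hoxb7 start had one there too (fold 3.43), although its RNA was lower. Summed mesenchymal markers were 93.9 to 96.5 RPKM in Liver Ctrl and 58.1 to 64.6 in 2Runx1, and endothelial markers 4842 to 4915 and 4274 to 4473, and their part in the liver Hox values was not tested.

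At E9.5, Hoxb2 was 3.48 and 3.66 RPKM in Ctrl and 2.67 and 2.62 in 1Runx1 (-0.33 ± 0.12, adjusted p = 0.316), and Hoxb6 had a difference of -0.28 ± 0.11 (adjusted p = 0.323). Neither passed the test, though the Hoxb2 libraries did not overlap. Of the 18 members 6 had both 1Runx1 libraries below both Ctrl libraries (33.3%), beside 22.8% of all genes, and 1 had both above, beside 26%. Tests of the difference between effects, of 1Runx1 at E13.5 against E9.5 and of 2Runx1 in liver against E13.5, called 0 members each, beside 2.26% and 11.1% of genes, with 2 and 0 at an unadjusted p under 0.05 and 0 by limma-voom in both. Leaving out a replicate of E13.5 2Runx1 left 1 library in each E13.5 group of the second test. Its Hoxb2 difference was 0.65 without replicate 2, beside 0.43 with all libraries. Its Hoxa9 difference was 0.67 without replicate 1, beside 0.29.

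**Figure D5:**
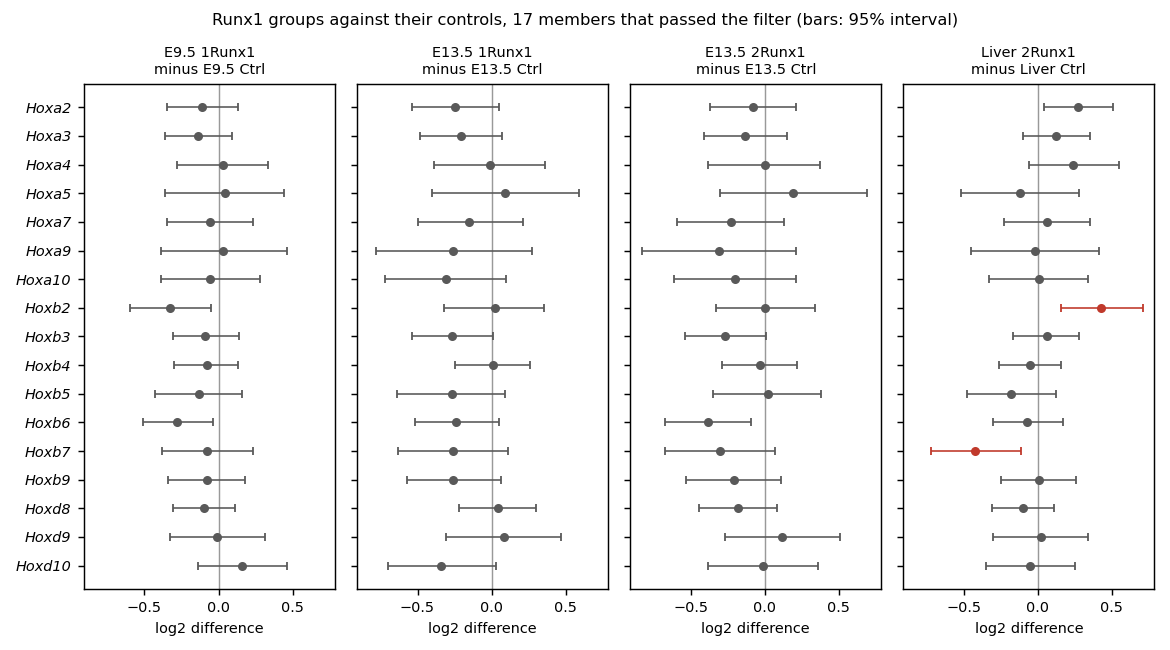
Log2 difference on the log2(RPKM + 1) scale (horizontal axis) of 17 tested members between each Runx1 group and the Ctrl of its stage, with the 95% interval as a bar; red marks an adjusted p under 0.05. Red points are Hoxb2 (0.43) and Hoxb7 (-0.42), both in liver.

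ATAC coverage of the clusters in the Runx1 groups is set beside that of their controls without a test. It was 9.54% in E9.5 1Runx1 beside 9.37% in Ctrl, 7.8% and 7.67% in E13.5 1Runx1 and 2Runx1 beside 8.44%, and 1.08% in Liver 2Runx1 beside 1.5%. Starts with a peak numbered 31 beside 30, 28 and 26 beside 28, and 9 beside 10. Of the 123 cluster peaks of E9.5 Ctrl, 107 (87%) overlapped a 1Runx1 peak, and of the 33 of Liver Ctrl, 19 (57.6%) overlapped a 2Runx1 peak, beside 69.8% of all Liver Ctrl peaks. Within Hoxc, the E13.5 lists held 19 peaks in Ctrl, 17 in 1Runx1 and 16 in 2Runx1. H3K4me1, a histone mark of enhancers and promoter flanks measured at E13.5, covered 7.37% of the clusters in Ctrl and 29.9% in 2Runx1, beside 1.31% and 3.47% of the genome. The 2Runx1 list was longer, with 88344 regions against 48795, and the descriptions of the 2Runx1 input and of 1 of its ChIP libraries appear exchanged in the labels, so this difference is given without further reading.

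Genes that work with or upstream of Hox were read from lists. Of 9 PBX and MEIS family cofactors 8 were tested. At E13.5 0 were higher and 2 lower than at E9.5 (median -0.14, beside -0.02 over all genes), beside 48.8% of all genes called. In liver 3 were higher and 3 lower than at E13.5 (median -0.04, beside 0.02), beside 79.3% of all genes called. Without the scaling factor 2 were higher and 4 lower (median -0.33, beside -0.35), beside 27.4% and 52.9% of all genes. Meis1, a HOX partner in blood and endothelium, was 8.0 and 9.19 RPKM at E9.5, 5.87 at E13.5 and 21.7 and 20.7 in Liver Ctrl (1.69 ± 0.10 against E13.5, adjusted p = 3.95e-08). Meis2 was 3.18 and 3.11, then 3.62, then 14.9 and 16.0 RPKM (1.83 ± 0.24). Meis1 and Meis2 were thus higher in liver, as were Hoxa5 and Hoxb5, while other cofactors stood lower there. Pbx3 was 14.3 RPKM at E13.5 and 7.3 and 8.2 in Liver Ctrl, Pbx2 11.1 and then 8.04 and 6.89, and Meis3 1.35 and then 0.194 and 0.256. In E13.5 1Runx1 1 cofactor was lower and 0 higher, beside 10.4% of all genes called. In liver 2Runx1 2 were higher and 1 lower, beside 25.3%. In E9.5 1Runx1 and E13.5 2Runx1 0 were called, beside 1.19% and 0.271%.

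Of 19 Polycomb genes, 7 were higher and 8 lower in liver than at E13.5 (median 0.15), beside 40.6% and 38.6% of all genes, so the share called is near the background of 79.3%. Without the scaling factor 5 were higher and 10 lower, and the median turned to -0.26, beside -0.35 over all genes. The catalytic subunits of the H3K27 methylating complex went opposite ways: the Ezh2 difference was -2.88 ± 0.08 and the Ezh1 difference 2.46 ± 0.13. Among the subunits that read the mark, Cbx2 was lower (-2.37) and Cbx7 higher (2.53). Of 12 Trithorax and H3K27 demethylase genes, 0 were higher and 8 lower in liver (median -0.45, beside 0.02 over all genes). Without the scaling factor 10 were lower (median -0.84), beside 52.9% of all genes. Between E9.5 and E13.5 the counts were 5 higher and 6 lower for Polycomb (median -0.11) and 1 and 6 for Trithorax (median -0.22), beside 22.3% and 26.4% of all genes and a median of -0.02. Without the scaling factor they were 5 and 5 (median -0.01) and 1 and 3 (median -0.14), beside a median of 0.06. In Liver 2Runx1 5 Polycomb genes were higher and 2 lower (median 0.11), and 3 Trithorax genes were higher and 1 lower (median 0.14), beside 17.1% and 8.14% of all genes and a median of 0.02.

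Of 17 genes of the upstream signals, 12 were tested. In liver 7 were higher and 3 lower than at E13.5 (median 0.95), and 7 and 4 (median 0.61) without the scaling factor, beside 79.3% of all genes called. Between E9.5 and E13.5 4 were higher and 6 lower (median -0.01), beside 48.8% of all genes called. Rarb, a retinoic acid receptor and itself a target of retinoic acid, was 5.80 RPKM at E13.5 and 65.1 and 66.7 in Liver Ctrl (3.3 ± 0.13, adjusted p = 2.82e-09). Rarg (2.42 ± 0.09) and Cyp26b1, an enzyme that degrades retinoic acid (2.90 ± 0.16), were higher too. Cyp26a1, another such enzyme, was lower at E13.5 than at E9.5 (-2.93). Cdx1, Cdx2 and Cdx4, the caudal-type factors, were at 0 in E13.5 Ctrl and in Liver Ctrl. In the Runx1 comparisons 0 were called in E9.5 1Runx1 and E13.5 2Runx1, beside 1.19% and 0.271% of all genes. In E13.5 1Runx1 1 was lower, beside 4.03% of all genes lower, and in Liver 2Runx1 3 were lower, beside 8.14%.

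The clusters also hold non-coding genes, of which 22 were listed and 6 tested. In liver 3 were higher and 2 lower than at E13.5 (median 0.43), a share near that of all genes. Hotairm1, which lies in the Hoxa cluster and is read from the opposite strand, was 6.28 and 3.24 RPKM in E9.5 Ctrl, 5.32 in E13.5 Ctrl, 32.3 and 31.6 in Liver Ctrl and 21.3 and 26.6 in Liver 2Runx1 (2.38 ± 0.28 for liver against E13.5, adjusted p = 1.36e-05). Like Hoxa2, it was higher in liver. The library kit does not mark strand, so reads where such genes overlap cannot be assigned to 1 of them. Of 13 genes flanking the clusters 9 were tested, and 5 were higher and 3 lower in liver (median 0.29), beside 79.3% of all genes called. Without the scaling factor 3 were higher and 3 lower, and the median turned to -0.10. In the Runx1 comparisons 0 were called in E9.5 1Runx1, E13.5 1Runx1 or E13.5 2Runx1, beside 1.19%, 10.4% and 0.271% of all genes. In Liver 2Runx1 1 was higher, beside 17.1% of all genes higher.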

How the data were processed

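RNA-seq (13 libraries), ATAC-seq (14), H3K4me1 ChIP-seq (4) and inputs (2) were deposited for sorted mouse endothelial cells. Per the submitters' processing notes, which give no order, tools included Trim Galore 0.6.4, STAR 2.7.3a, Subread 2.0.0 and edgeR for RNA, and MACS2 2.1.4, Bowtie2 2.3.5.1, deepTools 3.3.0 and SAMtools 1.1 for the other assays, on GRCm38. The authors deposited RPKM with a further scaling factor per library, 0.828 to 1.13, lowest in liver. Whole reads fitted the RPKM of 100% of 20720 genes above 0 (tolerance 0.001 reads). The authors' peak lists hold −log10 q values, a ratio to background (fold enrichment) and a display score, in 1 list per group; the score was not used.

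Limma 3.58.1 (R 4.3.3, trend) was fitted to log2(RPKM + 1) of all 13 libraries with 7 group means, for 12546 genes with at least 1 RPKM in at least 2 libraries, in 10 comparisons. Degrees of freedom were 6 residual and 4.3 prior. Tests were two-sided, with Benjamini-Hochberg adjustment at 0.05. The script was tested on simulated data. Read ratios have exact binomial 95% intervals, with a floor of 3 reads per library. A cluster ran from its first to its last Hox base with 5 kb on either side, and a start window covered 500 bases either side. Values per library were given for members called in a comparison (the 4 largest differences) or among the 3 highest in a stage's Ctrl, 9 in all, of which 1 is not reported here. Members and lists were chosen with earlier results of these data known. Replicate numbers did not pair the libraries: of 15 pairs 1 had a correlation of deviations over 0.1 (range -0.06 to 0.11). Columns of no sample numbered 0.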

Additional observations from a re-analysis of the deposited data

How the results depend on the processing

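Of 43 calls of a member in a comparison, 32 kept direction and threshold under every alternative, 11 were lost under at least 1, and 0 reversed. The 43 include, in each comparison of liver with an embryonic stage, 7 lower calls of members that passed the filter through embryonic libraries alone. Those could only be lower, so that they were kept is a description. Higher calls of Hoxa10 and Hoxd10 for E13.5 against E9.5, and of Hoxb3 and Hoxb4 for liver against each embryonic stage, are also included. These members passed the filter through the stage where they were high and could only be called higher. The lost calls included Hoxa3, Hoxa10, Hoxb6 and Hoxb7 for E13.5 against E9.5, Hoxb3 for liver against E13.5, Hoxb7 (0.21, adjusted p = 0.184 without the scaling factor) and Hoxd10 (adjusted p = 0.0504 without E9.5 Ctrl replicate 2) for liver against E9.5, and Hoxb2 and Hoxb7 in Liver 2Runx1. Fits with a lower filter and another pseudocount or limma-voom, the scaling factor taken out, and lists of equal length were chosen after seeing the data. The number of members called for E13.5 against E9.5 was 9, and 14 with no filter or a filter at 0.25 RPKM. For liver against E13.5 it was 15, and 27 with no filter, 26 at 0.25 RPKM, and 27 at 0.25 RPKM with pseudocount 0.1 or limma-voom. For liver against E9.5 it was 16, and 29, 26, 27 and 27 under the same settings. More members entered the test under each. In liver those let in at 0.25 RPKM could only be lower. No share of all genes stands beside these counts, so they are not read as a result. In E9.5 1Runx1 no filter gave 1 (Hoxb1, -0.21). In E13.5 1Runx1 no filter, 0.25 RPKM and limma-voom at 0.25 RPKM gave 2, and only the stages compared gave 0. Hoxd13 was among those 2, and it reached 0.25 RPKM only in Ctrl and 2Runx1 libraries. In Liver 2Runx1 the count of 2 was 0 with pseudocount 0.1 (also at 0.25 RPKM) and with no filter, and 1 at 0.25 RPKM, with quantile normalization, without the scaling factor and with limma-voom (also at 0.25 RPKM). For 2Runx1 against 1Runx1 the count of 0 was 1 with no filter, at 0.25 RPKM, with quantile normalization, without the scaling factor, with limma-voom (also at 0.25 RPKM) and with the replicate block. With no filter and at 0.25 RPKM that 1 was Hoxd13. The replicate block changed no other count, and the numbers do not pair the libraries. Leaving out 1 library in turn gave 6 to 8 calls for E13.5 against E9.5, 14 to 14 for liver against E13.5, 16 to 17 for liver against E9.5, 0 to 0 in E9.5 1Runx1, 0 to 1 in E13.5 1Runx1, 0 to 2 in E13.5 2Runx1, 0 to 0 in Liver 2Runx1, 0 to 1 for 2Runx1 against 1Runx1, and 0 to 0 and 0 to 1 for the differences between 1Runx1 and 2Runx1 effects. The E13.5 Ctrl library could not be left out, since it has no replicate. A lone library left in a group was assumed to vary like the others. The cause of these changes, beyond the number of genes and libraries in a fit, was not tested.

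ATAC shares are listed in the order E9.5 Ctrl, E9.5 1Runx1, E13.5 Ctrl, 1Runx1, 2Runx1, Liver Ctrl, Liver 2Runx1. At a q of 1e-10 or smaller the covered share was 7.15, 7.49, 6.68, 6.29, 5.86, 0.725 and 0.459%; with no flank 9.79, 9.96, 8.98, 8.29, 8.1, 1.62 and 1.17%; with 50 kb on each side 6.7, 6.81, 5.84, 5.42, 5.29, 1 and 0.766%. With equal list length the embryonic shares were 4.62, 4.17, 4.27, 4.38 and 4.6%, and the starts with a peak 17, 17, 15, 16 and 15. In Liver Ctrl the starts numbered 5 with an overlap of at least 200 bases, 2 within 100 bases and 3 at the stricter q, and in Liver 2Runx1 3, 2 and 2. Liver stayed below the embryonic groups in each of these settings.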
